A study of Sus scrofa with 45 samples.

Results

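The comparison described here is that of added sucrose: whole blood of pigs on a diet rich in fat, cholesterol and sucrose (HFCSD) for 10 weeks against whole blood of pigs on a diet rich in fat and cholesterol alone (HFCD) for the same time. Its members were chosen by their labels, and are the 4 arrays of whole blood HFCSD at 10 weeks and the 4 arrays of whole blood HFCD at 10 weeks, 8 of the 45 arrays of the series. The HFCD group received 15% lard and 2% cholesterol, and the HFCSD group received 37% sucrose in addition to the same lard and cholesterol. All animals were specific pathogen-free male Clawn miniature pigs, 12 weeks old when the diets began, with 5 pigs per diet in the study. Whole blood was collected in PAXgene tubes without separating its cells, so the RNA includes that of red cells, platelets and all leukocytes. The study proposes that whole blood also holds RNA from tissues or organs. The RNA was labelled with Cy3, and each array carried the RNA of 1 sample. Another 4 arrays of pigs on the control diet at 10 weeks entered the fit for its estimate of spread, and their levels are given beside those of the diet groups. A level below is the log2 of the normalized intensity of a probe, a difference is HFCSD minus HFCD on that scale, and arrays are named by diet and replicate number, which the labels do not tie to a pig over the weeks. A probe is called well above background by the flag of the scanner software, and the groups of a probe are called separated when all HFCSD arrays lay on 1 side of all HFCD arrays. Where a gene had several probes, the values are those of its probe with the largest difference, and a gene is counted as higher or lower by the mean over its probes.

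Sucrose is split in the gut into glucose and fructose, and fructose is taken up mainly by the liver, where ketohexokinase starts its use. Blood RNA reports on the cells in circulation: platelets carry RNA from the megakaryocytes that shed them, with high amounts of the transcripts of their granule proteins and adhesion receptors, and leukocytes carry the transcripts of antigen presentation, chemokine and interferon responses. Interferon-induced genes such as MX1 and OASL respond together to type I interferon and serve as a readout of antiviral signalling.

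Every HFCSD array lay above every HFCD array for GUCY1B1, a subunit of the nitric oxide receptor guanylate cyclase, PPBP, a chemokine precursor of platelet granules, and CD36, a scavenger receptor and fatty acid carrier, with differences of 1.32, 1.2 and 1.19. GUCY1B1 and PPBP are on the list of platelet markers used here and CD36 is not. F2R, the thrombin receptor and also outside that list, was separated as well, but its probe was well above background on only 1 of 4 HFCD arrays, so its difference, 3.33 and 1.05 with normexp background correction, has no firm size. Levels of interferon-induced genes, of antigen presentation genes and of T cell genes were mostly lower in HFCSD, as were 11643 of all 17916 probes. The groups of these genes overlapped, except at 1 of the 3 probes of IFIH1. None of these differences passed the adjusted threshold. With limma, 0 of 17916 probes tested (0%) passed an adjusted p of 0.05, the smallest adjusted p being 0.209 for GUCY1B1. At an unadjusted p of 0.05, limma gave 886 probes (4.95%), 551 higher and 335 lower in HFCSD, and the methods' t-test gave 854 probes at that level and 0 after Benjamini-Hochberg adjustment. The direction of such probes turned with the model: limma gave 754 higher and 1032 lower with array weights, and 182 higher and 214 lower with all 45 arrays in 1 fit. The groups were separated at 472 probes (2.63%), of which 250 (1.4%) were higher and 222 (1.24%) lower in HFCSD. Here too the direction turned, to 213 higher and 229 lower with scaling to the 75th percentile and 239 and 276 with normexp. With the weaker flag of a positive and significant signal in the filter it was 332 and 377, and with no filter 847 and 412. The criterion of the methods, a fold of 2 with an unadjusted p of 0.05 in the methods' t-test, was met by 107 probes (0.597%), 89 higher and 18 lower, or 83.2% higher. With normexp background correction it was met by 20 probes, 100% of them higher, and with limma in place of that test by 235 probes. With the weaker flag in the filter 57.3% were higher (149 and 111 lower) and with no filter 57.8% (155 and 113), in place of 83.2%. With the stricter filter of well above background in both groups it was 97.4% (75 and 2), with 528 higher and 211 lower at an unadjusted 0.05 and 237 and 148 separated.

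Which array was left out mattered for these counts. Without HFCD replicate 2, limma gave 1 call, F2R, with an adjusted p of 0.0029. That array is the only HFCD array with F2R well above background, so the call sets HFCSD against HFCD levels near background. The count at an unadjusted 0.05 was then 2766 in place of 886. The latter count was 553 without HFCD replicate 4, 551 without HFCSD replicate 1, 564 without HFCSD replicate 2 and 1421 without HFCSD replicate 3. That of the methods' t-test ran from 516 without HFCD replicate 1 to 2516 without HFCD replicate 2, in place of 854. Separated probes numbered 3215 without HFCD replicate 2, 769 without HFCD replicate 3, 813 without HFCSD replicate 2, 1342 without HFCSD replicate 3 and 931 without HFCSD replicate 4, in place of 472, where fewer arrays also separate more easily. Of these, more were lower than higher without HFCD replicate 2 (904 higher, 2311 lower), HFCD replicate 3 (365, 404), HFCSD replicate 2 (406, 407), HFCSD replicate 3 (546, 796) and HFCSD replicate 4 (332, 599), and also without HFCD replicate 1 (340, 358). The criterion of the methods was met by 440 probes without HFCD replicate 2, 58 without HFCD replicate 4, 57 without HFCSD replicate 2 and 279 without HFCSD replicate 3, in place of 107. With limma in that criterion the count ran from 125 without HFCSD replicate 2 to 1160 without HFCD replicate 2, in place of 235, and was 60 with normexp. Weighting the arrays by their quality in limma gave 2 calls, F2R, with the same limit, and GUCY1B1. Differences named below that moved by more than 1.5 times with these weights were 1.47 for OAS1, -1.41 for MX1, -2.28 for CXCL10, -1.95 for RSAD2, -1.48 for MX2, 0.35 for PSMD4, -0.43 for IL6R, 1.0 for TLR10, 0.25 for BIRC5, -0.66 for RPS20, -0.17 for COX5A, 0.33 for ACACA, -1.23 for LGALS9, 1.19 for MGP, -0.22 for WNT10B, -0.26 for CCL3L1, -0.55 for LEP and 1.31 for A_72_P177141.

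**Figure D1:**
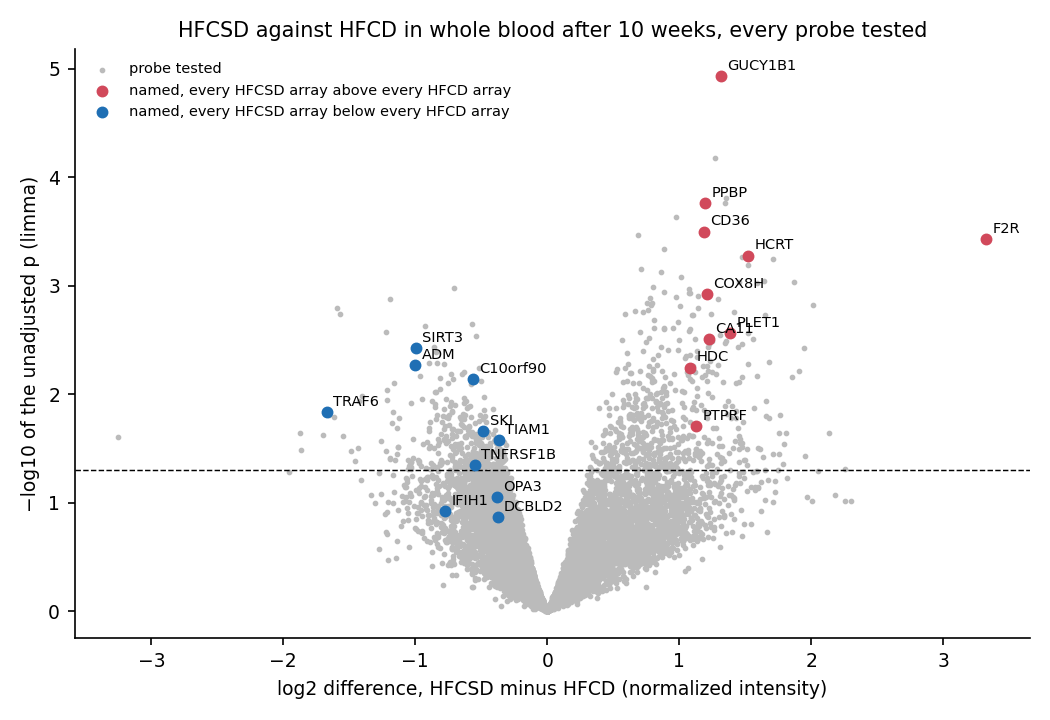
Difference between HFCSD and HFCD (log2 of normalized intensity, horizontal axis) against -log10 of the unadjusted limma p (vertical axis) for each of the 17916 probes tested, with the level of 0.05 as a dashed line. The 10 named genes with the largest differences whose HFCSD arrays all lay above the HFCD arrays are red and the 10 with all HFCSD arrays below are blue, and F2R stands farthest to the right at 3.33.

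F2R encodes the receptor through which thrombin activates platelets and vessel wall cells. The levels of F2R were 2.85, 5.88, 1.77 and 2.67 in HFCD replicates 1 to 4 and 5.97, 7.18, 7.25 and 6.09 in HFCSD replicates 1 to 4. Its probe was well above background on 1 of 4 HFCD arrays, replicate 2, and on all 4 HFCSD and all 4 control arrays, so the HFCD levels of replicates 1, 3 and 4 are those of a spot near background. HFCD replicate 2 came close to the lowest HFCSD array, replicate 1, and the other HFCD arrays lay far below all HFCSD arrays. The difference was 3.33 (SE 0.68), with an unadjusted p of 0.000372 and an adjusted p of 0.670 in limma. Control arrays averaged 5.97, close to the lowest HFCSD array. With normexp background correction, which compresses low intensities, the difference was 1.05, and without HFCD replicate 2 it was 4.19. Within slides 1, 2 and 3 the differences of F2R were 3.73, 3.42 and 3.41.

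GUCY1B1 had the smallest p of all probes tested. Its levels were 4.91, 5.36, 5.31 and 5.21 in the HFCD group and 6.54, 6.89, 6.12 and 6.52 in the HFCSD group, in the order of the replicate numbers. The lowest HFCSD array, replicate 3, lay well above the highest HFCD array, replicate 2, and the control mean of 6.68 lay among the HFCSD arrays. The difference was 1.32 (SE 0.19), a fold of 2.50, with an unadjusted p of 1.16e-05 and an adjusted p of 0.209 in limma. It was 1.32 with the slide as a block and 0.68 with normexp background correction. Its partner subunit GUCY1A1, looked up after its values were seen, differed by 0.28, with overlapping groups.

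PPBP and PF4 encode the chemokines that platelets store in their alpha granules. PPBP was at 8.78, 8.49, 8.40 and 8.05 in HFCD and at 9.43, 10.20, 9.47 and 9.41 in HFCSD, so the lowest HFCSD array stood above the highest HFCD array. The difference of PPBP was 1.2 (SE 0.22, adjusted p = 0.623 in limma), and both of its 2 probes separated the groups. PF4, the brightest gene among the platelet markers, named because its groups were separated, was at 12.85, 12.81, 13.07 and 12.82 in HFCD and at 13.08, 13.88, 13.22 and 13.94 in HFCSD. HFCSD replicates 2 and 4 were high, and HFCSD replicate 1 exceeded the highest HFCD array, replicate 3, by a narrow margin. PF4 differed by 0.64, with an unadjusted p of 0.0132 and an adjusted p of 0.809.

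CD36 takes up oxidized lipoproteins and long-chain fatty acids and is carried by platelets and monocytes. Its levels were 6.98, 6.47, 6.81 and 6.73 in HFCD and 8.14, 7.96, 7.88 and 7.75 in HFCSD, with a gap between the groups wider than the spread within either. The difference was 1.19 (SE 0.24), a fold of 2.28, with an adjusted p of 0.670 in limma. Of its 4 probes tested, 3 had groups that did not overlap, all higher in HFCSD, and 1 was lower without separating the groups. Control arrays averaged 7.89, between the lowest and highest HFCSD arrays. Genes with more than 1 probe separating the groups numbered 7 of the 447 named genes tested with more than 1 probe, and each of the 7 was higher in HFCSD. They were looked up after their values were seen, and are CD36, COX8H, FHL1, HSBP1, P2RY1, PPBP and TXN. P2RY1, an ADP receptor of platelets, was at 7.0, 6.88, 7.20 and 6.97 in HFCD and 7.60, 8.09, 7.55 and 7.66 in HFCSD, and all 3 of its probes separated the groups. FHL1, a LIM domain protein, was at 8.71, 8.69, 9.09 and 8.78 in HFCD and 9.44, 10.32, 9.18 and 9.84 in HFCSD, with HFCSD replicate 3 only just above HFCD replicate 3.

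**Figure D2:**
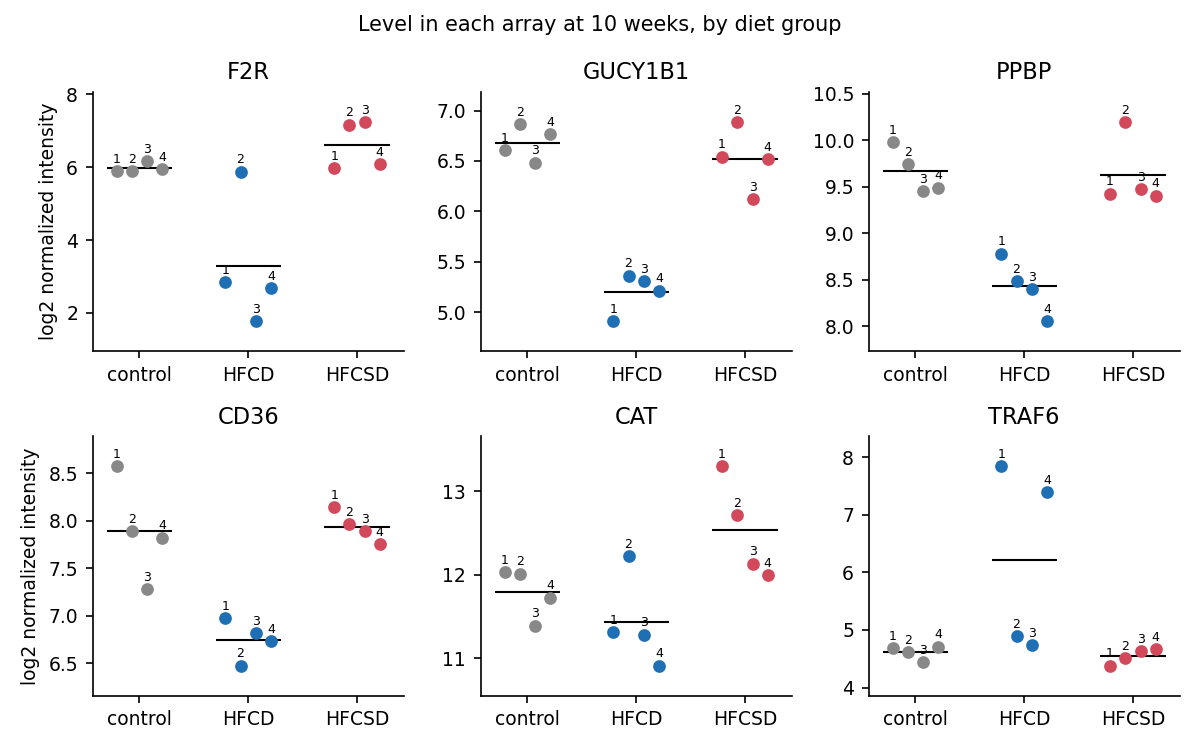
Log2 normalized intensity of 6 genes in each array of whole blood at 10 weeks, by diet group, with the group mean as a line and the replicate number above each point. For F2R, GUCY1B1, PPBP and CD36 the HFCSD arrays lie above all HFCD arrays, for CAT HFCD replicate 2 lies within the HFCSD range, and for TRAF6 only HFCD replicates 1 and 4 stand well above the rest.

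Of the 21 platelet markers, 11 had a named probe and all 11 were tested. The mean level of these 11 genes was 9.02, 9.03, 9.12 and 8.93 in HFCD replicates 1 to 4 and 9.45, 10.04, 9.17 and 9.62 in HFCSD replicates 1 to 4. Every HFCSD array was above every HFCD array, HFCSD replicate 3 by the least and HFCSD replicate 2 by the most, and the control arrays lay at 9.31, 9.91, 9.44 and 9.78. The median difference was 0.68, beside -0.10 over all 17916 probes, and lay between 0.50 and 0.75 with any 1 of the 8 arrays left out, while 9 genes were higher and 2 lower. At 3 genes, GUCY1B1, PPBP and PF4, every HFCSD array was higher, where 37 of the 1596 named genes tested (2.32%) had such a probe, and at 0 every HFCSD array was lower, where 16 (1%) had. Most other members are named here after their values were seen. ITGA2B and ITGB3, the subunits of the fibrinogen receptor, differed by 0.68 and 0.79, and in both HFCSD replicate 3 lay within the HFCD range. VWF, the carrier of factor VIII and ligand of platelets, differed by 0.68, THBS1 by 0.72 and SELP, the adhesion receptor P-selectin, by 0.46. The exceptions were TBXAS1, thromboxane synthase, at -0.44 (-0.68 without HFCD replicate 2, -0.22 without HFCD replicate 4 and -0.27 with normexp), and GP1BA, a subunit of the VWF receptor, at -0.27. Within slides 1, 2 and 3 the median difference of the list was 0.80, 0.11 and 0.81. In bulk blood, fewer cells of a type and less RNA per cell cannot be told apart. The part of platelet number in the differences of platelet genes was not tested.

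Markers of the vessel wall and smooth muscle, a list that shares VWF with the platelet markers, had 8 of 19 members tested and a median difference of 0.59, with 7 higher and 1 lower. The median was 0.36 without HFCSD replicate 2 and 0.37 without HFCSD replicate 4, 0.35 with normexp and 0.23 with no filter, where more members enter. The mean level of these genes was 7.11, 7.19, 7.55 and 7.62 in HFCD and 7.53, 8.10, 7.63 and 8.20 in HFCSD, so that only HFCSD replicate 1 lay within the HFCD range, and HFCSD replicate 3 was just above it. PECAM1, an adhesion protein of endothelium, platelets and leukocytes, was the brightest, and 1 of its 5 probes separated the groups. TPM1, tropomyosin 1, differed by 0.85 (0.28 with normexp), and TPM2 was the 1 lower member. The median differences of the list within the 3 slides were 0.88, 0.17 and 0.55. Collagen genes COL1A1 and COL1A2, SPARC, TAGLN, CDH5 and KDR had probes and were not well above background on every array of either group, so they were not tested. The part of vessel wall cells in the result was not tested.

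HDC, histidine decarboxylase, makes histamine and marks basophils and mast cells. It was at 7.16, 7.07, 7.08 and 7.12 in HFCD and at 7.77, 9.32, 7.76 and 7.92 in HFCSD. HFCSD replicate 2 stood far above the other HFCSD arrays, and the rest of the HFCSD group exceeded HFCD by a smaller step. The difference of HDC was 1.09 (SE 0.32, adjusted p = 0.809 in limma). Leaving out HFCSD replicate 2 gave 0.71. Of the 13 markers of eosinophils, basophils and mast cells, 5 were tested, all 5 with a positive difference, and the median was 0.26. It was 0.40 without HFCD replicate 3, 0.43 without HFCSD replicate 1 and 0.10 without HFCSD replicate 2. The mean level of the 5 was 8.12, 8.67, 8.52 and 8.12 in HFCD and 8.58, 9.46, 8.76 and 8.51 in HFCSD, with ALOX15 the brightest. The part of these cells in the result was not tested.

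Other genes with every HFCSD array above every HFCD array were HCRT, PLET1, CA11, COX8H and PTPRF. HCRT, the precursor of the orexin neuropeptides, was at 10.503, 10.32, 10.95 and 9.61 in HFCD and at 12.45, 12.37, 11.36 and 11.29 in HFCSD. PLET1, named for its expression in placenta, was at 4.38, 4.24, 4.57 and 3.75 in HFCD and at 6.24, 6.36, 4.99 and 4.90 in HFCSD. CA11, a carbonic anhydrase relative without catalytic activity, was at 5.48, 5.46, 6.09 and 4.77 in HFCD and at 6.96, 7.36, 6.24 and 6.15 in HFCSD. In these 3 genes HFCSD replicates 1 and 2, which shared a slide, were the high arrays, and HFCD replicate 4 was the lowest. Their differences were 1.52, 1.39 and 1.23, and the second probe of HCRT was lower in HFCSD without separating the groups. COX8H, a subunit of cytochrome c oxidase, was at 4.49, 4.26, 4.64 and 4.86 in HFCD and at 5.72, 6.71, 5.25 and 5.41 in HFCSD, and its 3 probes all separated the groups. PTPRF, a receptor tyrosine phosphatase, was at 4.48, 5.62, 4.09 and 5.71 in HFCD and within 6.05 to 6.20 in HFCSD. Here the HFCD group was the spread one, with replicates 2 and 4 near the HFCSD arrays. With normexp the differences were 0.50 for PLET1, 0.62 for CA11, 0.46 for COX8H and 0.34 for PTPRF, in place of 1.39, 1.23, 1.21 and 1.13. The adjusted p in limma was 0.670 for HCRT and COX8H, 0.765 for PLET1, 0.784 for CA11 and 0.809 for PTPRF.

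Enzymes against reactive oxygen were among the sets with separated genes, 3 of 13 tested, all higher in HFCSD: TXN, PRDX6 and SOD1. Over all named genes tested 2.32% had a probe separated in this direction, and no test was made of the 3. TXN, thioredoxin, was at 10.07, 10.40, 10.01 and 10.36 in HFCD and at 10.90, 10.57, 10.63 and 11.07 in HFCSD, a difference of 0.58 with an unadjusted p of 0.0560. PRDX6, a peroxiredoxin, was at 9.49, 9.58, 9.93 and 9.65 in HFCD and at 10.08, 10.80, 10.01 and 10.37 in HFCSD, and HFCSD replicate 3 exceeded HFCD replicate 3 by a narrow margin. CAT, catalase, which splits hydrogen peroxide and is abundant in red cells, had the largest difference of the list. Its levels were 11.31, 12.22, 11.28 and 10.91 in HFCD and 13.30, 12.71, 12.13 and 11.99 in HFCSD. HFCD replicate 2 lay above HFCSD replicates 3 and 4, and the other HFCD arrays lay below all HFCSD arrays. The difference of CAT was 1.1 (SE 0.33), with an unadjusted p of 0.00549 and an adjusted p of 0.809 in limma. HMOX1, heme oxygenase, was the lowest at -0.44 (-0.21 without HFCD replicate 4 and -0.28 without HFCSD replicate 3). Over the 13 genes tested, 8 were higher and 5 lower, the median difference was 0.14 (0.03 without HFCD replicate 1, 0.06 without HFCD replicate 3 0.03 without HFCSD replicate 4 and 0.05 with normexp) and the medians within the 3 slides were 0.11, 0.04 and 0.11.

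Fewer named genes had every HFCSD array below every HFCD array, and most of their differences were smaller. TRAF6, the adaptor that carries Toll-like and interleukin 1 receptor signals, was at 7.84, 4.89, 4.74 and 7.39 in HFCD and at 4.38, 4.52, 4.63 and 4.67 in HFCSD. HFCD replicates 1 and 4 were far above the rest, and HFCD replicates 2 and 3 exceeded the highest HFCSD array by little, so the difference of -1.67 rested on those 2 arrays. Leaving out HFCD replicate 1 gave -1.13, and normexp gave -0.90. The probe was well above background on 3 of 4 HFCSD arrays. ADM, the vasodilator peptide adrenomedullin, was at 4.04, 4.44, 4.17 and 4.43 in HFCD and at 2.98, 3.00, 3.61 and 3.48 in HFCSD. SIRT3, a mitochondrial deacetylase, was at 4.18, 4.34, 4.06 and 4.35 in HFCD and at 2.61, 3.48, 3.70 and 3.17 in HFCSD. Both probes were well above background on all 4 HFCD arrays, on 1 of 4 HFCSD arrays and on 0 of 4 control arrays, and their levels were low. Their differences were -1.0 and -0.99, and -0.16 and -0.19 with normexp background correction. IFIH1, a sensor of viral RNA, differed by -0.77 (-0.35 with normexp) at the dimmest of its 3 probes, which was well above background on 3 of 4 HFCSD arrays. Its other 2 probes differed by -0.40 and -0.37, with overlapping groups. TNFRSF1B, a receptor of tumor necrosis factor, differed by -0.55 (-0.34 with normexp), SKI, a repressor of SMAD signalling, by -0.48 (-0.29), TIAM1, an activator of Rac, by -0.37, OPA3, a mitochondrial protein, by -0.38 (-0.25), C10orf90 by -0.56 (-0.25) and DCBLD2 by -0.38. The smallest adjusted p of these 10 genes in limma was 0.80, for SIRT3.

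Interferon-induced genes were the list with the lowest median difference, -0.46. Of its 44 members 22 had a named probe and 21 were tested, 20 with a lower mean in HFCSD and 1, OAS1, with a higher one. Of the 2 probes of OAS1 the brighter was lower at -0.27, and the other, higher at 0.41, ran over the arrays left out from -0.14 without HFCD replicate 3 to 1.25 without HFCSD replicate 2. MX1, a GTPase that blocks viral replication, was at 15.21, 13.06, 14.73 and 14.50 in HFCD and at 13.15, 14.19, 13.37 and 13.14 in HFCSD. CXCL10, a chemokine for activated T cells, was at 11.16, 7.26, 9.63 and 8.55 in HFCD and at 7.51, 9.29, 7.87 and 6.71 in HFCSD. OASL, an antiviral protein of the oligoadenylate synthetase family, was at 9.87, 7.35, 7.88 and 9.0 in HFCD and at 5.91, 8.35, 7.18 and 6.94 in HFCSD. In MX1 and CXCL10, HFCD replicate 2 was low among the HFCD arrays and HFCSD replicate 2 was high among the HFCSD arrays, and in OASL HFCD replicates 2 and 3 lay inside the HFCSD range. The differences were -0.91, -1.30 and -1.43, with unadjusted p-values of 0.0576, 0.102 and 0.0313 and an adjusted p of 0.809 for each in limma. RSAD2, which makes an antiviral nucleotide, differed by -0.93 and MX2 by -0.72, and ISG15, the brightest of the list, by -0.27. Without HFCD replicate 1 the differences were -0.63 for CXCL10, -0.33 for RSAD2 and -0.25 for MX2. RSAD2 and MX2 were also at -1.59 and -1.22 without HFCD replicate 2, -1.45 and -1.16 without HFCSD replicate 2, and -0.55 and -0.45 without HFCSD replicate 4.

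The mean level of the 21 interferon-induced genes was 10.79, 9.36, 10.12 and 10.08 in HFCD and 9.46, 10.08, 9.5 and 9.23 in HFCSD, and 9.07, 9.05, 8.88 and 9.27 in the control group. HFCD replicates 1, 3 and 4 lay above HFCSD replicates 1, 3 and 4, while HFCD replicate 2 lay among the latter and HFCSD replicate 2 was level with HFCD replicates 3 and 4. Without HFCD replicate 2 the median difference was -0.64, and over all 8 arrays left out in turn it ranged from that value to -0.23, the latter without HFCD replicate 1. Within slides 1, 2 and 3 it was -0.96, -0.25 and -0.74, and over the other ways of scaling it lay between -0.47 and -0.35. IFIH1 was the 1 member with groups that did not overlap, at 1 of its 3 probes, where 1% of all named genes tested had a probe separated in this direction.

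**Figure D3:**
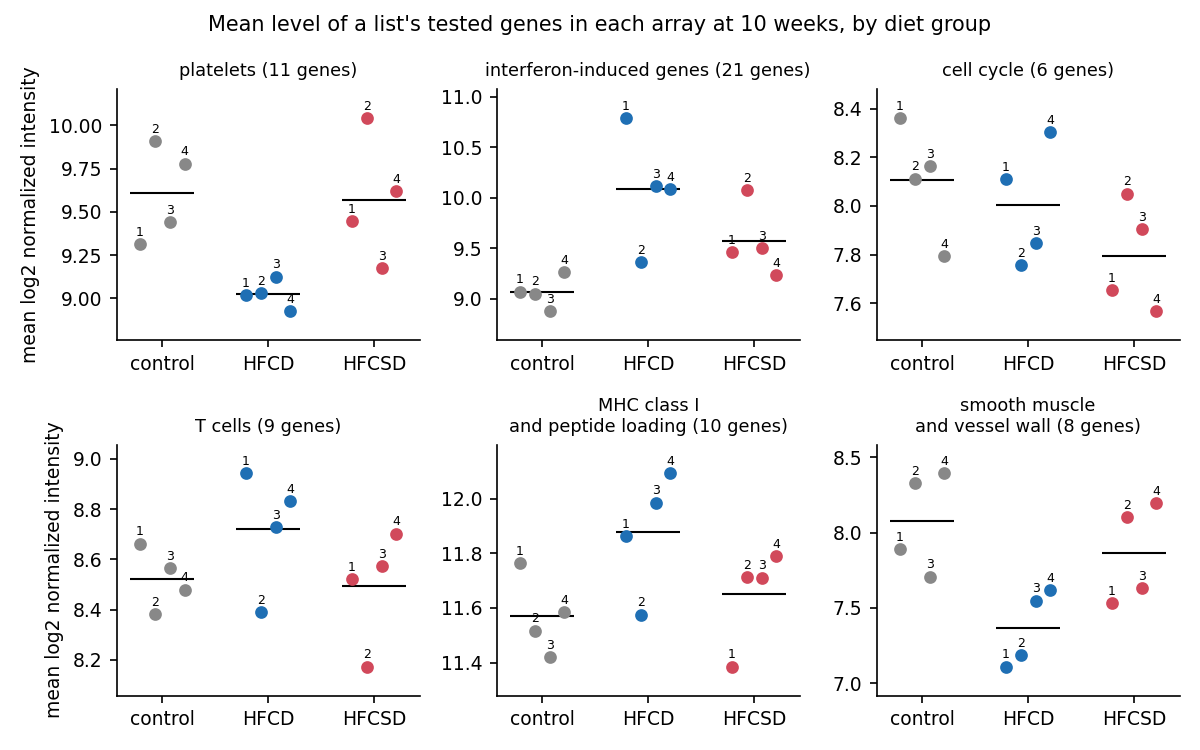
Mean log2 normalized intensity of the tested genes of 6 lists in each array of whole blood at 10 weeks, by diet group, with the group mean as a line and the replicate number above each point. The platelet markers of the HFCSD group lie above all HFCD arrays, and in the other 5 lists the diet groups overlap.

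Genes that present antigen were lower in HFCSD without exception among those tested, by small amounts. All 10 tested genes of MHC class I and peptide loading had a negative difference, with a median of -0.23, and so did all 5 of MHC class II, with a median of -0.23. The mean level of the class I list was 11.86, 11.57, 11.98 and 12.09 in HFCD and 11.38, 11.71, 11.71 and 11.79 in HFCSD, where HFCD replicate 2 lay below HFCSD replicates 2, 3 and 4, and where HFCD replicate 4 lacked a value at 1 of the 5 probes of SLA-3. TAP1, a subunit of the peptide transporter, was the lowest of class I at -0.51, and SLA-DQB1 of class II was at -0.49. Leaving out single arrays moved these values: the class II median was -0.39 without HFCD replicate 2, -0.09 without HFCD replicate 4 and -0.02 without HFCSD replicate 1. SLA-DQB1 was at -0.75, -0.22 and 0.01 without the same 3 arrays, and at -0.75 without HFCSD replicate 2. The class I median was -0.14 without HFCD replicate 4 and -0.14 without HFCSD replicate 1, where TAP1 was at -0.34 and -0.25. No gene of either list had an unadjusted p below 0.05 or separated groups. The proteasome list, which supplies those peptides, had 10 of 11 genes lower and a median of -0.14 (-0.09 without HFCD replicate 1, -0.24 without HFCD replicate 2, -0.23 without HFCSD replicate 3 and -0.09 with normexp), and PSMD4 was its exception at 0.53 (0.35 without HFCD replicate 4 and 0.33 without HFCSD replicate 1). Since 11643 of all 17916 probes were lower and 6273 higher, a negative sign by itself was the more common one.

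Markers of T cells, which recognize those peptides, had 9 of 9 tested genes lower and a median of -0.27. It was -0.18 without HFCD replicate 1, -0.13 without HFCSD replicate 2 and -0.16 with normexp. Their mean level was 8.94, 8.39, 8.73 and 8.83 in HFCD and 8.52, 8.17, 8.57 and 8.70 in HFCSD, with HFCD replicate 2 low and HFCSD replicate 4 high, and CCR7 was the brightest. CD3D, a subunit of the T cell receptor complex, differed by -0.40 (-0.23 without HFCSD replicate 2 and -0.20 with normexp). The 3 tested markers of NK and cytotoxic cells were all lower, with a median of -0.32 and per-array means of 9.35, 9.74, 10.32 and 8.53 in HFCD and 8.83, 9.5, 9.15 and 9.02 in HFCSD. Without HFCD replicate 3 that median was -0.14, and without HFCD replicate 4 it was -0.61. GNLY was the brightest of them, and PRF1, perforin, differed by -0.48 (-0.16 without HFCD replicate 3, -0.24 without HFCSD replicate 1 and -0.12 with normexp). Of 9 tested monocyte markers 8 were lower, with a median of -0.21, and their mean level was 8.95, 9.08, 9.27 and 9.74 in HFCD and 8.67, 9.16, 8.88 and 9.41 in HFCSD. The monocyte median was -0.33 without HFCD replicate 1, -0.13 without HFCD replicate 4 -0.41 without HFCSD replicate 4 and -0.32 with the weaker flag. LYZ, lysozyme, was the brightest monocyte marker and the only one higher, and CD68 was the lowest at -0.65, with its second probe at -0.14. Neutrophil markers were split, 4 higher and 4 lower of 8 tested, with a median of 0.12 (from -0.01 without HFCSD replicate 2 to 0.25 without HFCSD replicate 1, and 0.52 with no filter and 0.30 with the weaker flag), per-array means of 10.62, 11.12, 10.93 and 10.76 in HFCD and 10.89, 12.10, 10.63 and 10.92 in HFCSD, and FCGR3A the brightest. NPG4, the precursor of a protegrin antimicrobial peptide, reached 12.73 on HFCSD replicate 2 and lay between 6.90 and 9.40 on the other 7 arrays. The 5 tested markers of B cells and plasma cells had a median of 0.12 (0.05 without HFCD replicate 2 and 0.04 without HFCD replicate 3, and 0.23 with the stricter filter) with means of 7.04, 7.79, 7.51 and 7.34 in HFCD and 7.31, 7.23, 7.76 and 7.51 in HFCSD, and CD40 was the brightest. The 3 tested dendritic cell markers had a median of -0.07 (from -0.30 without HFCD replicate 2 to 0.0037 without HFCD replicate 4, and -0.05 with no filter, -0.05 with the weaker flag and 0.34 with the stricter filter), and CD86 was the brightest. Their means were 7.32, 7.37, 7.34 and 8.10 in HFCD and 7.27, 7.44, 7.17 and 6.93 in HFCSD, where that of HFCD replicate 4 is over 2 genes, since CD80, the dimmest, had no value on it, and cannot be set beside the others. The part of these cell types in the results was not tested.

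Chemokines and their receptors differed in both directions, with 5 genes higher and 9 lower of 14 tested and a median of -0.33. Without HFCD replicate 4 the median was -0.19, and it was -0.19 with no filter. The 2 with separated groups, PPBP and PF4, are those counted above among the platelet markers, beside 2.32% of all named genes tested. CCL8, which attracts monocytes, had the most negative difference at -1.87 with levels of 7.34, 4.26, 6.01 and 5.44 in HFCD and 3.66, 4.81, 3.98 and 3.11 in HFCSD, and was well above background on 2 of 4 HFCSD arrays. With normexp it differed by -0.75. HFCD replicate 2 lay within the HFCSD range for CCL8, as it did for CXCL10. Inflammatory cytokines and receptors had 12 of 16 tested genes lower and a median of -0.22, from -0.67 for IL6R to 0.76 for IL1A, or -0.15 and 0.25 with normexp, and -0.41 for IL6R without HFCSD replicate 1. That median was -0.35 without HFCD replicate 2 and -0.10 without HFCSD replicate 1. The probe of IL6R was well above background on only 2 of 4 HFCSD arrays, so -0.67 has no firm size. IL1A was at 4.10, 4.48, 4.39 and 3.66 in HFCD and at 5.61, 5.37, 4.59 and 4.10 in HFCSD, overlapping through HFCSD replicate 4. Among 11 tested Toll-like receptors and adaptors the median was -0.17, with TLR10 the highest at 0.65 (0.18 with normexp) and TRAF6 the lowest. It was -0.01 without HFCD replicate 4, -0.05 without HFCSD replicate 1 and -0.04 without HFCSD replicate 3.

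Cell cycle genes had a median difference of -0.40 over 6 tested genes, 5 lower and 1 higher, and of -0.21 without HFCD replicate 4. TOP2A, the topoisomerase of dividing cells, was at 6.63, 6.30, 7.12 and 6.94 in HFCD and at 5.69, 6.77, 6.28 and 5.92 in HFCSD, and BIRC5, survivin, was the exception at 0.58 (0.31 without HFCD replicate 4, 0.25 without HFCSD replicate 2 and 1.12 without HFCSD replicate 4). Heat shock and unfolded protein response genes had 10 of 11 lower and a median of -0.14 (-0.07 without HFCSD replicate 2 and -0.08 with normexp). HSPA5, the chaperone of the endoplasmic reticulum, was the lowest at -0.75 (-0.41 without HFCSD replicate 1 and -0.22 with normexp), with its second probe at -0.42. The probe at -0.75 was well above background on only 2 of 4 HFCSD arrays, so its size and rank are not firm. Of 47 tested genes of cytosolic ribosomal proteins 14 were higher and 33 lower, and the median of -0.10 was that of all probes. With scaling to the 75th percentile it was 0.03, and with 1 array left out it ran from -0.16 without HFCD replicate 2 to -0.02 without HFCSD replicate 2, and it was -0.06 with no filter. The probe of RPL37 was the most positive of them at 1.75 and that of RPS20 the most negative at -1.16, both at low levels, and with normexp they differed by 0.75 and -0.17. The second probe of RPL37 was at 0.04, and RPS20 was at -0.64 without HFCSD replicate 2. The probe of RPS20 was well above background on only 2 of 4 HFCSD arrays, so its difference has no firm size. Genes of the respiratory chain and ATP synthase had a median of -0.06 over 16 genes (-0.12 without HFCD replicate 2, -0.03 without HFCD replicate 4 and -0.09 without HFCSD replicate 3, and -0.04 with no filter). COX7A2, a subunit of cytochrome c oxidase, separated the groups, at 11.47, 11.34, 11.38 and 10.71 in HFCD and 11.76, 12.11, 11.59 and 11.67 in HFCSD, and COX5A was the lowest at -0.39 (-0.65 without HFCSD replicate 3 and -0.24 with normexp).

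Genes that handle sugar differed in both directions, and some single members differed by more than the medians of their lists. Of 19 members of the fructose, polyol and hexosamine pathways, 10 had a named probe and 6 were tested, with a median of -0.09 (from -0.19 without HFCSD replicate 3 to -0.02 without HFCSD replicate 1, and -0.20 with the weaker flag) and 0 genes at an unadjusted p of 0.05 in limma. KHK, the enzyme that starts fructose use, and G6PC1 had probes that were not well above background on every array of either group. SLC2A5, the fructose transporter, was taken up for its function after its values were seen, and was at 7.80, 8.93, 8.48 and 8.26 in HFCD and 7.70, 7.64, 8.54 and 7.93 in HFCSD, with wide overlap. GFPT1, the first enzyme of the hexosamine pathway, was the lowest of the list at -0.54 (-0.34 without HFCD replicate 4, -0.21 without HFCSD replicate 1 and -0.25 with normexp). Its probe was well above background on only 2 of 4 HFCSD arrays, so this size and rank are not firm. Glycolysis genes had a median of -0.07 over 7 genes (from -0.15 without HFCD replicate 2 to 0.07 without HFCSD replicate 1, and 0.03 with no filter and -0.05 with the weaker flag), with PFKM the lowest at -1.17. PFKM, phosphofructokinase of muscle, was at 7.0, 6.46, 6.44 and 6.29 in HFCD and at 4.77, 4.81, 4.41 and 7.52 in HFCSD. HFCSD replicate 4 was above all HFCD arrays and HFCSD replicates 1 to 3 below all of them, so the mean difference described no single HFCSD array well. It was -1.89 without HFCSD replicate 4 and -0.53 with normexp. Pentose phosphate genes had a median of -0.13 over 4 genes (from -0.27 without HFCD replicate 2 to -0.00056 without HFCD replicate 4, and -0.07 with no filter and -0.07 with the weaker flag). Glucose sensing and transport genes had -0.05 over 5 (from -0.14 without HFCSD replicate 2 to 0.04 without HFCD replicate 2, and -0.01 with no filter), with SLC2A8 the lowest at -0.35 and PYGM the highest at 0.83 (1.63 without HFCD replicate 2 and 0.24 without HFCD replicate 4). In insulin and adipokine signalling 5 of 6 genes were higher, with a median of 0.26 (0.12 without HFCSD replicate 2 and 0.04 with no filter). ADIPOR1, an adiponectin receptor, was at 8.87, 9.82, 9.59 and 8.06 in HFCD and at 10.85, 10.496, 9.51 and 9.41 in HFCSD, with HFCSD replicates 1 and 2 high and replicates 3 and 4 inside the HFCD range. The difference of ADIPOR1 was 0.98, and 0.64 without HFCD replicate 4. Within the 3 slides the median of the insulin list was 0.73, -0.24 and 0.35, negative on slide 2.

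Genes of cholesterol and fatty acid metabolism, to which both diets of this comparison add the same lard and cholesterol, mostly had medians close to that of all probes. Cholesterol synthesis had a median of -0.02 over 5 genes (from -0.17 without HFCD replicate 2 to 0.12 without HFCSD replicate 2, and -0.08 with normexp, and -0.16 with no filter and -0.13 with the weaker flag). SQLE, squalene epoxidase, was at 5.78, 5.45, 6.21 and 5.80 in HFCD and at 5.30, 5.39, 5.84 and 6.19 in HFCSD, a difference of -0.13 (adjusted p = 0.893 in limma), and its control mean was 7.25. With 1 array left out SQLE ran from -0.30 without HFCSD replicate 4 to 0.01 without HFCD replicate 3. ABCA1, which exports cholesterol from cells and is an LXR target, was at 11.89, 11.28, 12.22 and 12.15 in HFCD and at 11.20, 11.65, 11.38 and 11.69 in HFCSD. HFCD replicate 2 lay within the HFCSD range and the other HFCD arrays lay above it. ABCA1 differed by -0.40 (SE 0.22), with an unadjusted p of 0.0875 and an adjusted p of 0.809, and its control mean was 9.5. It was -0.61 without HFCD replicate 2. NR1H3, the receptor LXR alpha, was the lowest of the LXR list at -0.70, and SREBF1 the highest at 0.49 (0.25 without HFCD replicate 1, 1.0 without HFCD replicate 2 and -0.01 without HFCD replicate 4). The median of that list was -0.03 over 6 genes (from -0.09 without HFCSD replicate 4 to 0.0033 without HFCSD replicate 2, and 0.07 with normexp, and 0.0027 with no filter, -0.08 with the weaker flag and -0.01 with the stricter filter). The median of sterol sensing and LDL uptake, with CD36 its highest member, was 0.20 over 8 genes (0.13 without HFCD replicate 2 and 0.12 without HFCSD replicate 4). Fatty acid synthesis genes had a median of 0.01 over 9 genes (from -0.13 without HFCD replicate 1 to 0.03 without HFCD replicate 4, and -0.0048 with normexp, and -0.08 with the weaker flag and -0.01 with the stricter filter). ACACA was the highest of them at 0.63 (0.21 without HFCSD replicate 2 and 0.22 with normexp), and its probe was well above background on 2 of 4 HFCD arrays. Fatty acid oxidation genes had a median of -0.03 over 16 genes (from -0.12 without HFCD replicate 2 to 0.01 without HFCD replicate 4, and -0.02 with normexp, and -0.00034 with no filter and 0.03 with the stricter filter).

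**Figure D4:**
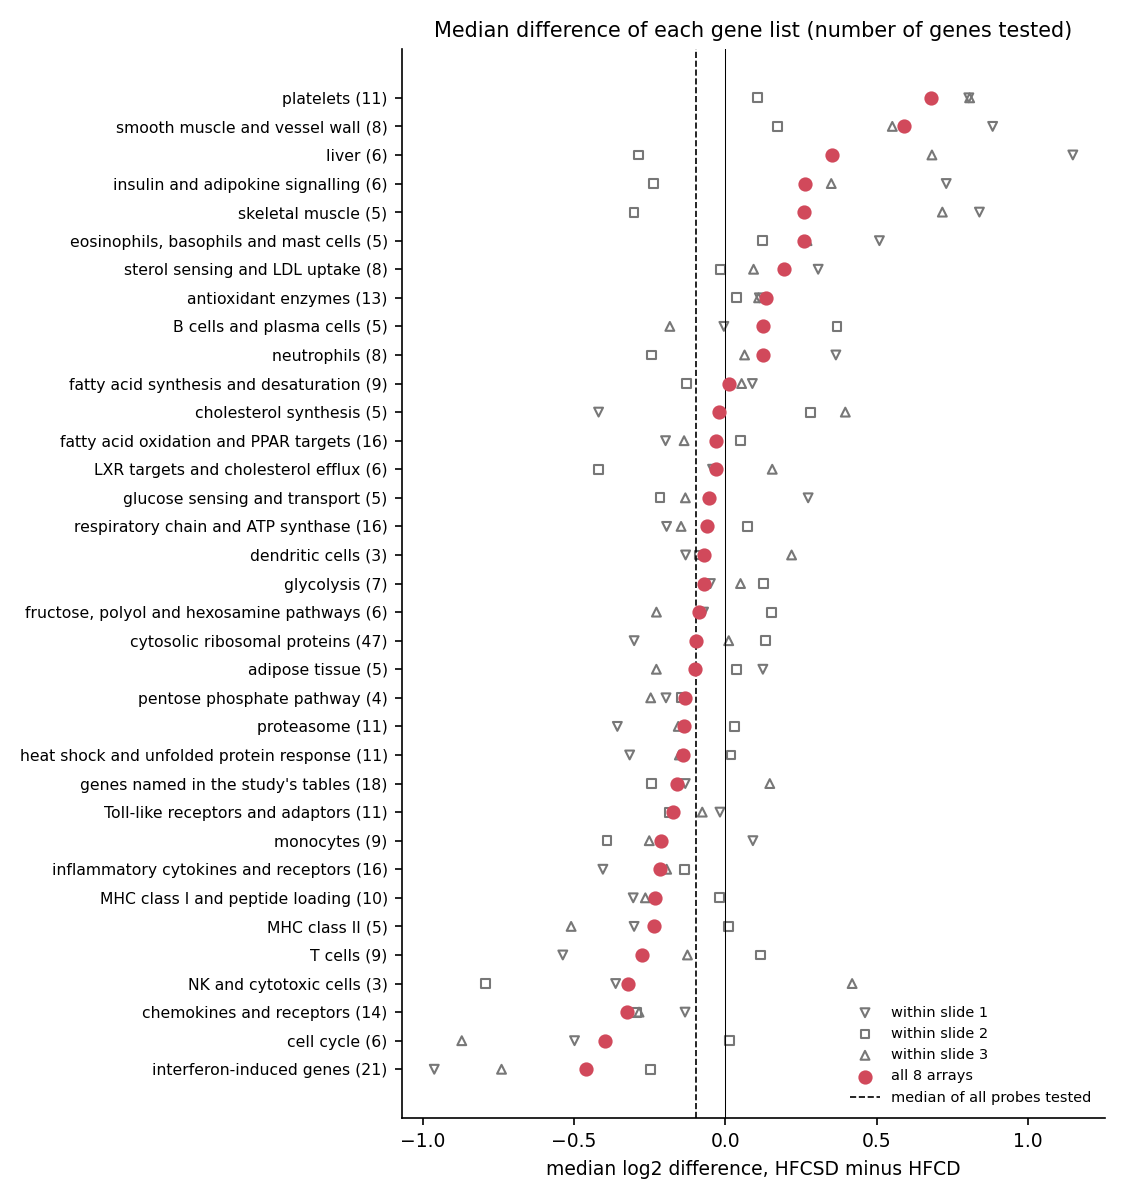
Median difference between HFCSD and HFCD (log2) of each list with more than 1 gene tested, over all 8 arrays (filled points) and within each of the 3 slides (open symbols), with the median of all probes tested at -0.10 as a dashed line. The platelet list lies farthest to the right at 0.68 and the interferon-induced genes farthest to the left at -0.46, and slide 2 is the slide on which most lists lie nearest to 0.

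Of the 22 genes named in the tables of the study, 20 had a named probe and 18 were tested here, 8 higher and 10 lower, with a median of -0.16 (from -0.25 without HFCD replicate 2 to 0.02 without HFCSD replicate 1, and -0.07 with normexp, 0.12 with no filter and 0.02 with the weaker flag). The study chose these genes on arrays of this series, so their directions are not independent evidence. ABCB4, a phospholipid transporter, was at 4.52, 6.44, 5.41 and 3.67 in HFCD and at 6.76, 7.14, 5.79 and 5.51 in HFCSD, a difference of 1.29. GRK7, a receptor kinase of the retina, was at 6.30, 9.32, 6.86 and 5.39 in HFCD and at 8.64, 9.01, 7.87 and 6.55 in HFCSD. UPK2, a protein of the bladder lining, was at 8.05, 11.30, 10.30 and 7.96 in HFCD and at 10.59, 10.31, 10.35 and 10.12 in HFCSD. In these 3 genes HFCD replicates 1 and 4 were the low HFCD arrays and HFCD replicate 2 lay within or above the HFCSD range. ROMO1, a modulator of reactive oxygen in mitochondria, had the same low and high HFCD arrays and a difference of 1.06, while its other 3 probes differed by 0.44, 0.30 and 0.34. SPTB, erythroid spectrin, the 1 erythroid marker tested of 26, was at 4.30, 5.90, 5.01 and 3.34 in HFCD and 6.18, 6.24, 5.21 and 4.30 in HFCSD. XCR1, a chemokine receptor of dendritic cells, was at 8.43, 10.47, 9.54 and 7.70 in HFCD and 10.52, 10.61, 9.61 and 8.42 in HFCSD. In both, HFCD replicate 2 stood close to HFCSD replicates 1 and 2, and HFCD replicate 4 was the lowest. Without HFCD replicate 4 the differences were 0.84 for ABCB4, 0.52 for GRK7, 0.46 for UPK2, 0.42 for ROMO1, 0.41 for SPTB and 0.31 for XCR1, in place of 1.29, 1.05, 0.94, 1.06, 0.84 and 0.75. Without HFCD replicate 2 they were 1.83 for GRK7, 1.57 for UPK2, 1.67 for ROMO1 and 1.23 for XCR1, and with normexp 0.54 for ABCB4, 0.64 for GRK7 and 0.18 for SPTB. UPK2 was at 0.49 without HFCD replicate 1, ROMO1 and XCR1 were at 0.68 and 0.48 without HFCSD replicate 2, and XCR1 was at 1.21 without HFCSD replicate 4. The part of red cells in these values was not tested. The remaining genes of those tables lay between -0.80 for LGALS9 (-0.46 without HFCD replicate 1, -0.29 without HFCSD replicate 4 and -0.44 with normexp) and 0.78 for MGP (0.51 without HFCSD replicate 3), apart from CXCL10, RSAD2, MX1 and TPM1 above. They included WNT10B at -0.60 (-0.15 without HFCD replicate 4, -1.04 without HFCSD replicate 4 and -0.37 with normexp), CCL3L1 at -0.67 (-1.04 without HFCD replicate 1, -0.40 without HFCD replicate 2 and -0.44 with normexp) and CNN1 at 0.53 (1.08 without HFCSD replicate 1, 0.21 without HFCSD replicate 2, 0.24 without HFCSD replicate 4 and 0.29 with normexp). The sign of MAOA and IL18 turned with the array left out.

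Few transcripts typical of other tissues were well above background in blood. Of 26 liver markers 20 had a named probe and 6 were tested, all 6 higher, with a median of 0.35 and medians of 1.15, -0.29 and 0.68 within the 3 slides. That median was 0.58 without HFCD replicate 2, 0.08 without HFCD replicate 4, 0.17 without HFCSD replicate 2 0.16 with normexp and 0.07 with no filter. The mean level of the 6 was 5.24, 6.24, 5.75 and 4.90 in HFCD and 6.02, 6.60, 5.68 and 5.87 in HFCSD, RBP4 was the brightest at 6.94, and ALB, APOA1, APOB and TTR were not well above background on every array of either group. ITIH4 was the highest liver marker at 1.39 (0.68 without HFCD replicate 4 and 0.39 with normexp) and C3 the lowest. The probe of ITIH4 was well above background on 3 of 4 HFCD arrays. The skeletal muscle markers had 5 of 20 tested and a median of 0.26, with means of 6.52, 7.82, 7.12 and 6.31 in HFCD and 7.23, 7.54, 7.08 and 7.18 in HFCSD, and PYGM the brightest. The muscle median was 0.11 without HFCD replicate 1, 0.02 without HFCD replicate 4 0.40 without HFCSD replicate 2, 0.01 with no filter and 0.01 with the weaker flag. Adipose markers had 5 of 12 tested and a median of -0.10 (from -0.22 without HFCSD replicate 4 to 0.0038 without HFCSD replicate 2, and -0.01 with no filter), with means of 7.86, 8.70, 8.02 and 8.54 in HFCD and 8.09, 8.42, 8.27 and 8.17 in HFCSD, LIPE the brightest, PNPLA2 the highest at 0.60 (0.32 without HFCSD replicate 2 and 0.20 with normexp) and LEP, leptin, the lowest at -0.84 (-0.50 with normexp). The part of these tissues in the result was not tested.

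Among probes without a gene name, 4 are given here as those with the largest differences of separated groups. A_72_P177141 was at 8.25, 7.09, 8.31 and 6.70 in HFCD and at 10.47, 10.502, 8.74 and 8.68 in HFCSD, a difference of 2.01. A_72_P339583 was at 7.91, 7.63, 7.87 and 6.09 in HFCD and at 10.29, 10.37, 8.34 and 8.31 in HFCSD, a difference of 1.95. In both, HFCSD replicates 1 and 2 were high and HFCSD replicates 3 and 4 only little above the highest HFCD arrays, as in HCRT, PLET1 and CA11. On the lower side, A_72_P312483 differed by -1.61 and A_72_P169771 by -1.59, the latter well above background on 1 of 4 HFCSD arrays, or by -0.70 and -0.31 with normexp.

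The arrays themselves differed in how much of them was measured. Spots marked as well above background made up 49.5%, 43.1%, 45.4% and 53.3% of HFCD replicates 1 to 4 and 41.5%, 37.1%, 48.1% and 48.1% of HFCSD replicates 1 to 4. Of the 8 arrays, HFCD replicate 4 had the highest share and HFCSD replicate 2 the lowest. The means were 47.8% (SD 4.51) and 43.7% (SD 5.40), a difference of -4.11 percentage points, with p = 0.286 in a two-sided exact permutation test. The difference was -1.89 points without HFCSD replicate 2 and -2.28 points without HFCD replicate 4. With this share as a covariate limma gave 0 calls and 462 probes at an unadjusted 0.05, and GUCY1B1 differed by 1.23, F2R by 2.99 and PPBP by 1.09. The median difference of all probes was -0.03 in this fit, in place of -0.10. Other genes named above moved by more than 1.5 times with the covariate. Among those higher in HFCSD the differences were 1.07 for OAS1, 0.34 for PSMD4, 0.47 for IL1A, 0.22 for BIRC5, 1.11 for RPL37, 0.18 for PYGM, 0.03 for SREBF1, 0.40 for ACACA, 0.71 for ABCB4, 0.37 for ROMO1, 0.43 for GRK7, 0.47 for UPK2, 0.36 for SPTB, 0.14 for XCR1 and 0.25 for PNPLA2. Among those lower they were -0.20 for TBXAS1, -0.10 for HMOX1, -0.48 for IFIH1, -0.22 for OPA3, -0.29 for TAP1, -0.30 for SLA-DQB1, -0.41 for IL6R, -0.33 for HSPA5, -0.58 for RPS20, -0.24 for GFPT1 and -0.24 for WNT10B. For the lists no such fit was made. Correlation coefficients over the 16 pairs of an HFCD and an HFCSD array ran from 0.898 to 0.987 with a median of 0.971, beside medians of 0.971 over the 6 pairs within HFCD and 0.971 over the 6 pairs within HFCSD, as a description of arrays that share probes and slides.

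The arrays of 10 weeks were scanned on 1 day and came from 3 slides. Slide 1 held HFCD replicate 1 and HFCSD replicates 1 and 2, slide 2 held HFCD replicates 2 and 3 and HFCSD replicate 3, and slide 3 held HFCD replicate 4 and HFCSD replicate 4. With the slide as a fixed block limma gave 0 calls and 1005 probes at an unadjusted 0.05, and as a random block 0 calls and 982 probes. The median difference of all probes was -0.24, 0.03 and -0.10 within slides 1, 2 and 3. With the fixed block -0.18 for COX5A, 1.43 for UPK2, -0.40 for CCL3L1 and -0.50 for LEP were the differences that moved by more than 1.5 times. Within slides, PPBP differed by 1.03, 1.03 and 1.35, CD36 by 1.08, 1.24 and 1.02 and GUCY1B1 by 1.81, 0.78 and 1.31. Since every HFCSD array lay above every HFCD array for these 3 genes, their sign on each slide was fixed beforehand and only the sizes could vary. The median of T cell markers was -0.54, 0.12 and -0.13 within the slides and that of MHC class II genes -0.30, 0.01 and -0.51. Each slide held only 1 array of at least 1 of the 2 diets, so its values rest on that array.

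The same pair of diets was sampled again after 19 weeks (4 HFCD and 3 HFCSD arrays) and 27 weeks (3 and 3 arrays), and the change of the difference from 10 weeks was tested with limma. The methods' t-test has no form for such a change. At 19 weeks 0 of 18419 probes (0%) differed in this way at an adjusted 0.05, with 558 at an unadjusted 0.05. Leaving out HFCSD replicate 3 of 19 weeks gave 2 calls, A_72_P165956 and A_72_P201197, both without a gene name and looked up afterwards. The 558 became 3562 without HFCD replicate 1 of 19 weeks, 297 without HFCD replicate 2 and 323 without HFCD replicate 4 of 19 weeks. Of the 10-week arrays, leaving out HFCD replicate 1 gave 369, HFCD replicate 2 1385, HFCD replicate 4 274, HFCSD replicate 1 321 and HFCSD replicate 2 263. At 27 weeks it was 0 of 19056 (0%), with 181 at an unadjusted 0.05. That count was 324 without HFCSD replicate 2 of 10 weeks, and 477, 308 and 519 without HFCD replicate 2, HFCSD replicate 2 and HFCSD replicate 3 of 27 weeks.

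Fitted alone, the later times differed in their counts for HFCSD against HFCD. At 19 weeks 0 of 16277 probes (0%) passed an adjusted 0.05, and 253 an unadjusted 0.05, a count that was 3487 without HFCD replicate 1. At 27 weeks 2 of 18003 probes (0.0111%) passed an adjusted 0.05, both lower in HFCSD: IRS1, the insulin receptor substrate, at -2.95, and A_72_P139261, without a gene name, at -1.90, both looked up after their values were seen. At an unadjusted 0.05 there were 2259 probes at 27 weeks, 1008 higher and 1251 lower. Leaving out single arrays, a choice made after seeing these results, gave 2 calls at 19 weeks without HFCSD replicate 3, again A_72_P165956 and A_72_P201197. At 27 weeks it gave 0 calls without HFCD replicate 1, 17 without HFCD replicate 2, 1 without HFCD replicate 3, 1 without HFCSD replicate 1, 3 without HFCSD replicate 2 and 42 without HFCSD replicate 3. The 2259 became 886, 4257 and 1253 without HFCD replicates 1, 2 and 3, and 875 and 3553 without HFCSD replicates 1 and 3.

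At the later times the genes above differed in how far the diets stayed apart. At 19 weeks F2R was at 1.70, 5.87, 4.07 and 2.84 in HFCD and at 6.41, 6.72 and 5.88 in HFCSD, and at 27 weeks at 6.85, 2.99 and 2.24 in HFCD and at 6.52, 7.90 and 6.63 in HFCSD. The groups of F2R did not overlap at 19 weeks, where fewer arrays also separate more easily. At 27 weeks HFCD replicate 1 lay among the HFCSD arrays for F2R. Its differences were 2.72 and 3.00, beside 3.33 at 10 weeks, with an adjusted p of 1.0 and 0.393 in limma, and the probe was well above background on 1 HFCD array at each of the 3 times. GUCY1B1 was at 3.84, 5.76, 5.88 and 5.32 in HFCD and 5.38, 4.73 and 5.23 in HFCSD at 19 weeks, where the groups overlapped. Its difference there was -0.09, a change of -1.41 from 10 weeks with an unadjusted p of 0.00730 and an adjusted p of 0.853. At 27 weeks GUCY1B1 differed by 0.51, with overlapping groups, a change of -0.81 from 10 weeks with an unadjusted p of 0.119 in limma. PPBP differed by 2.01 at 19 weeks and -0.51 at 27 weeks, and CD36 by 1.30 and -0.23, with overlapping groups at both times. Single low arrays weighed on these values. At 19 weeks HFCD replicate 4 was at 4.58 for PPBP and 3.95 for CD36, beside HFCD means of 7.98 and 5.85. At 27 weeks HFCSD replicate 3 was at 5.82 and 4.67, beside HFCSD means of 8.45 and 6.38. CAT differed by 0.51 and 1.26. Its groups did not overlap at 27 weeks, where fewer arrays also separate more easily, and its adjusted p there was 0.393 in limma. The platelet list had a median of 0.67 at 19 weeks and 0.03 at 27 weeks. Its mean level was 7.28, 9.86, 10.21 and 7.66 in HFCD and 9.82, 8.56 and 9.76 in HFCSD at 19 weeks, and 8.94, 9.28 and 8.94 and 9.75, 9.46 and 8.08 at 27 weeks, with overlapping groups at both. Of the 10 genes that stood highest in HFCSD at 10 weeks, 6 were higher and 4 lower at 19 weeks, and the same numbers held at 27 weeks. Of the 10 that stood lowest, 2 were higher and 5 lower at 19 weeks, and 1 was higher and 8 lower at 27 weeks. The rest were not tested at those times, and the median over all probes was 0.09 at 19 weeks and -0.15 at 27 weeks. ADM, lower at 27 weeks, was well above background there on 3 HFCD arrays and on 0 HFCSD arrays. The interferon list had 20 of 21 genes lower in HFCSD at 19 weeks, with a median of -0.30, and 15 of 21 lower at 27 weeks, with a median of -0.38.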

How the data were processed

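RNA of whole blood or of white blood cells of pigs was hybridized to 45 Agilent arrays of 43603 probes, 1 array per sample, of which the 8 whole blood arrays of HFCD and HFCSD at 10 weeks are compared here. Per the file headers, the intensity of a spot was extracted by the authors with Agilent Feature Extraction, which subtracted the background within each array. The scanner files as deposited give this intensity on a linear scale, not normalized between arrays. The deposited series table served as an alternative. The median of its log2 values lay between -3.31 and -3.32 on each array at 10 weeks, and its correlation with the processed signal lay between 0.993 and 0.9998. The constant that sets its scale is not given in the sources used here.

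The log2 of the processed signal was brought to a common distribution by quantile normalization of the 45 arrays together. A probe's level is the mean of its spots, without those that the software marked as outliers. A probe was tested if 1 or both of the 2 groups had it well above background on all usable arrays, which left 17916. The 3 diet groups of whole blood at 10 weeks were fitted with limma 3.58.1 in R 4.3.3, and the contrast HFCSD minus HFCD was tested two-sided with Benjamini-Hochberg adjustment at 0.05. The methods' t-test with equal variances was run beside it. The exact permutation test of the share of spots well above background used all assignments of the arrays to the groups. The change of the difference at 19 and 27 weeks was a contrast of contrasts over all whole blood arrays. The package data.table, version 1.17.8, read the data, and tables and figures were made in Python 3.11.15 with pandas 2.3.3, numpy 2.4.6, scipy 1.17.1 and matplotlib 3.10.9. The fits were tested on simulated data with known differences.

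The flag for a signal well above background was set for 37.1% to 53.3% of spots per array, which limits how many genes of blood could be tested. Of the 43603 probes, 2103 carried a RefSeq accession, 2038 of these were matched to a gene, and 4096 probes of 2801 genes were named in all. Names came from the accession for 2008 probes, from a symbol in the file for 837, from similarity to a mammalian protein for 1045 and from the description for 206. Among the genes with the largest differences, HDC, PTPRF, OPA3, SKI, DCBLD2, TIAM1 and C10orf90 are named by similarity.

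Genes are named by a rule. It takes every named probe past the adjusted threshold, and of the named genes with separated groups the 10 with the largest difference upward and the 10 downward. It also takes the highest and lowest tested member of each gene list, the genes in the study's tables, ABCA1 and SQLE, and up to 2 unnamed probes in each direction. Some members that the rule takes are not reported here. Genes named outside it were chosen after their values were seen, as stated beside them. The members and lists were chosen with earlier results of these data known. A list is described by counts and its median difference, taken over the means of each gene's tested probes, with no test of the list. Alternatives changed the normalization, background correction, source of the values, filter, arrays, blocks, weights, covariate and test.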

Additional observations from a re-analysis of the deposited data

Results flagged for a closer look

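In each group of 4 arrays, the gap between the highest or lowest array and its nearest neighbour was divided by the whole range of the group, and an array was set apart when this ratio was above Dixon's critical value for 4 samples. Among 290 groups looked at, 16 held such an array, and chance sets apart about 1 in 20 groups. The ratios below are given with the level of the array and the range of the other 3.

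In HFCSD replicate 4, WNT10B was high (6.62 against 4.84 to 4.88, ratio 0.977), as were PFKM (7.52 against 4.41 to 4.81, ratio 0.872), OPA3 (5.60 against 5.32 to 5.36, ratio 0.846) and TBXAS1 (6.52 against 5.64 to 5.78, ratio 0.839). In HFCSD replicate 2, PPBP was high (10.20 against 9.41 to 9.47, ratio 0.916), as was HDC (9.32 against 7.76 to 7.92, ratio 0.900), and OAS1 was low (6.10 against 9.2 to 9.77, ratio 0.844). In HFCSD replicate 1, C10orf90 was low (4.70 against 5.10 to 5.14, ratio 0.917), as were CD74 (9.11 against 9.65 to 9.72, ratio 0.892) and IFIH1 (4.13 against 4.94 to 5.11, ratio 0.830).

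In HFCD replicate 4, the mean level of dendritic cell markers was high (8.10 against 7.32 to 7.37, ratio 0.944). That mean is over 2 genes, since CD80, the dimmest of the 3, had no value on this array, so the ratio reflects the missing value and not a level. On the same array COX7A2 was low (10.71 against 11.34 to 11.47, ratio 0.836), as was the probe A_72_P339583, which has no gene name (6.09 against 7.63 to 7.91, ratio 0.843). In HFCD replicate 3, PRF1 was high (6.30 against 4.97 to 5.06, ratio 0.933), as was C3 (5.78 against 5.03 to 5.08, ratio 0.931). In HFCD replicate 2, RPS20 was high (4.57 against 3.96 to 4.06, ratio 0.840), and no other value named here was set apart on that array.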

How the results depend on the processing

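The sign of the difference held in every alternative for 93 of the named probes, among them all 20 genes named for separated groups. For those 20 the sign could not turn when 1 array was left out, since their groups were separated. A change of the filter, or of the arrays used only for the spread, leaves the difference of any probe as it was. Of 36 lists, 25 kept the sign of their median. Of 2360 values of named probes under alternatives, 2337 moved by less than 1 SD and 20 by more, the rest being calls of F2R and GUCY1B1. This SD is that of the arrays within the 2 groups, and for a list that of its mean level. Leaving out 1 array or changing only the filter cannot move a probe's value by that much. The count of 2337 was thus partly fixed beforehand and is no measure of stability. Of 540 list medians, 533 moved by less than 1 SD and 7 by more. The platelet median ranged from 0.50 to 0.75 and the interferon median from -0.64 to -0.23. Over the ways of scaling, the median of cytosolic ribosomal proteins ran from -0.10 to 0.03, that of cholesterol synthesis from -0.08 to 0.0033 and that of fatty acid synthesis from -0.02 to 0.01, each with both signs. That of the LXR list ran from -0.03 to 0.07, likewise with both signs.

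The count of 0 calls for HFCSD against HFCD held in every alternative except array weights, with 2 calls, and leaving out single arrays, with 0 to 1. Separated probes numbered 709 with the weaker flag of a positive and significant signal in the filter and 1259 with no filter, where more probes were tested, and 658 to 3215 with 1 array left out, in place of 472. The criterion of the methods was met by 20 probes with normexp, 260 with the weaker flag, 268 with no filter, 235 with the same fold and p in limma and 57 to 440 with 1 array left out, in place of 107. For the change at 19 weeks, calls numbered 1 with no filter and 0 to 2 with 1 array left out, and for that at 27 weeks 5 with no filter. Of these calls only EPHX1, at 27 weeks, has a gene name, and it was looked up after its values were seen. The cause was not tested beyond what fewer arrays or more probes bring by construction.

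With the replicate number as a replicate block, limma gave 0 calls and 1604 probes at an unadjusted 0.05. Arrays of the same number correlated in their deviations from the group means at -0.07, 0.40, -0.21 and 0.69 for numbers 1 to 4, and only HFCSD replicate 4 correlated best with its own number, so the numbers were not taken as pairs. As a random block the number gave 0 calls for the changes at 19 and 27 weeks. At an unadjusted 0.05 it gave 988 and 273 probes, in place of 558 and 181. With no filter, where more probes were tested, these counts were 1546 and 1198.

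Spots near background limit what can be said of F2R, ADM, SIRT3, CCL8, IL6R, HSPA5, GFPT1, RPS20, ACACA and ITIH4. Their differences were smaller in size with normexp. So were, among others, those of GUCY1B1, PTPRF, PLET1, COX8H, CA11, TRAF6, RPL37, A_72_P169771 and A_72_P312483, each by more than a factor of 1.5.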
